A study of Mus musculus with 18 samples.

Results

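Secreted signalling genes were followed across the series, namely the chemokines *Ccl2*, *Ccl7*, *Ccl5*, *Cxcl1*, *Cxcl5*, *Cxcl10* and *Cxcl12* and the cytokines *Csf1*, *Il6* and *Lif*. They were chosen by name, as the rows of the count table carrying these symbols, and all 10 were found among its 55450 genes. RNA-Seq was performed in ED1SQ4 cells, a murine lung cancer line derived from a mouse carrying a cyclin E transgene. The cells received vehicle or 0.5 μM CYC065, an inhibitor of the cyclin-dependent kinases CDK2 and CDK9, for 72 hours. Cells of each treatment were profiled unsorted and after sorting by DNA content into diploid (2N) and polyploid (4N) populations, giving 6 conditions that all share the same line and the same treatment time. A gate on DNA content does not tell a polyploid cell from a diploid cell that has copied its DNA before division. The sorted cells were stained with a DNA dye for 1 hour before sorting, and whether the unsorted cells were stained is not given in the sources used here.

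Each condition has 3 columns in the table, which carry 1 library number and, over genes with whole values, agreed within sampling noise. The sample titles call the columns replicates, and reading them as parts of 1 library is an inference made here. The columns were summed and counted as 1 library, so that n = 1 in every condition and no value holds the variation between cultures. Library totals lay between 54750203 and 62795507 expected counts. Levels are given as CPM, counts scaled to a common library total, after TMM scaling, which sets the libraries to a common level for most genes. Every interval is a 95% interval for counting error alone. A gene was tested when a library compared held at least 30 counts, and was called when its log2 ratio lay beyond 1 in either direction with an interval leaving out 0. These calls compare libraries and carry no p-value.

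Chemokines are small secreted proteins that attract leukocytes through G protein-coupled receptors, and cytokines of the IL-6 family signal through a shared receptor chain, gp130, encoded by *Il6st*, to the STAT3 transcription factor. Many of these genes are switched on through NF-κB, and several of their mRNAs carry AU-rich stretches that shorten their life. In lung tumors such factors recruit neutrophils, monocytes and macrophages, and they belong to the secretory program of stressed or senescent cells.

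The upstream sequences are shown for 2 members that rose with CYC065, *Cxcl1* and *Il6*, 1 that fell, *Lif*, and 1 that was near 0, *Cxcl10*. RefSeq promoter sequences (GRCm38.p6, the assembly of mm10) were matched for 6 of the 10 members, those of *Cxcl1*, *Cxcl10*, *Cxcl12*, *Csf1*, *Il6* and *Lif*. The 130 bases before the start are printed 5′ to 3′ on the strand of the gene, with capitals marking matches to any of 5 motifs, namely the NF-κB consensus, AP-1 (TGANTCA), STAT (TTCNNNGAA), C/EBP (TTGCNNAA) and the TATA box (TATAAA), each searched on both strands.
Cxcl1, chr5:90891115-90891244, + strand: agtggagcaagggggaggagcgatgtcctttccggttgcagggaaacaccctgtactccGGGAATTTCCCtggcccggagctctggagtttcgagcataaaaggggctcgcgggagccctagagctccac
Il6, chr5:30012984-30013113, + strand: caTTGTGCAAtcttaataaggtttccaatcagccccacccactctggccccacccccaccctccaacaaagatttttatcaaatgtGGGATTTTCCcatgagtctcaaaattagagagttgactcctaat
Lif, chr11:4257438-4257567, + strand: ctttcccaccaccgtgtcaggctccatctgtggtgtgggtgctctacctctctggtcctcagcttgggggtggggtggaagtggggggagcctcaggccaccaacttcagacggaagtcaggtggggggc
Cxcl10, chr5:92348890-92349019, - strand: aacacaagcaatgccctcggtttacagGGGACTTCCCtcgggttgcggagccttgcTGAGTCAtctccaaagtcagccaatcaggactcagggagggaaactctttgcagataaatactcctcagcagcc
The NF-κB consensus was found at bases -71 to -62 of *Cxcl1*, where both strands matched with the reverse match shifted by a base, at -44 to -35 of *Il6*, and at -103 to -94 of *Cxcl10*. In the whole window of 250 bases before to 50 after the start, *Cxcl10* held another match at -159 to -150 and *Csf1* a match at -154 to -145 on the reverse strand, whereas *Cxcl12* and *Lif* held none. The consensus was present in 4.51% of all 32851 promoters in the table. AP-1 (7.81% of all promoters) was matched at -74 to -68 of *Cxcl10*, -249 to -243 of *Il6* and -228 to -222 of *Lif*. The AP-1 matches of *Il6* and *Lif* lie outside the printed bases. C/EBP was matched upstream of *Il6* (10.8%). STAT (8.3%) and TATA box (13.6%) letters were in none of the 6 windows. These matches are descriptions of letters, not binding sites. The NF-κB consensus was found before genes that rose (*Cxcl1*, *Il6*), before 1 that fell in 4N cells (*Csf1*) and before 1 that was near 0 (*Cxcl10*). With promoters for 6 of the 10 members, whether matches go with direction was not tested.

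AU-rich stretches differed widely among the members. Counting ATTTA, the DNA letters of the AUUUA pentamer, in the longest annotated 3′ UTR of each gene (GENCODE M21), *Cxcl1* held 7 copies in 592 bases, or 11.8 per kb, a density above that of 99.7% of 18097 coding genes. *Il6* followed with 10 copies in 1668 bases, or 6.00 per kb, and then *Ccl7* (4.60), *Cxcl5* (4.50), *Ccl2* (3.64) and *Cxcl10* (3.01), whereas *Ccl5* held 0. *Lif* held 7 in 3180 bases (2.20 per kb), *Csf1* 4 in 2111 bases (1.89 per kb) and *Cxcl12* 4 in 5188 bases (0.771 per kb), beside a median of 1.49 per kb over all these genes. The 25 bases richest in ATTTA (capitals) are shown for *Cxcl1*, *Il6* and *Lif* because these were the densest members that rose and the member that fell in all 3 comparisons.
Cxcl1: tcctATTTATTTAtgtATTTATTTA
Il6: ttatttttaATTTAttgataATTTA
Lif: tctATTTAttactatgtcctATTTA

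Most of the summed CPM of the 10 members came from 2 genes, and other chemokines and cytokines were not part of this sum. *Csf1*, the growth factor that keeps macrophages alive, supplied 68.4 to 75% of the summed CPM of the 10 members with vehicle, and *Cxcl12*, the ligand of CXCR4 and ACKR3, supplied 19.5 to 24.2%. With CYC065, *Csf1* supplied 31.8 to 50.9% and *Cxcl12* 43.5 to 63.7%. Per kb of exon, *Csf1* was the highest member in 5 of the 6 libraries. In unsorted CYC065-treated cells *Cxcl12* stood above it, at 101 against 78.0 CPM per kb. In vehicle-treated 2N cells *Ccl2* was next at 23.9 CPM per kb, then *Lif* at 7.85, and the intervals of *Ccl7* (4.87), *Cxcl1* (4.12) and *Cxcl5* (4.07) overlapped between neighbors. *Ccl5* and *Cxcl10* were close to 0 throughout.

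**Figure D1:**
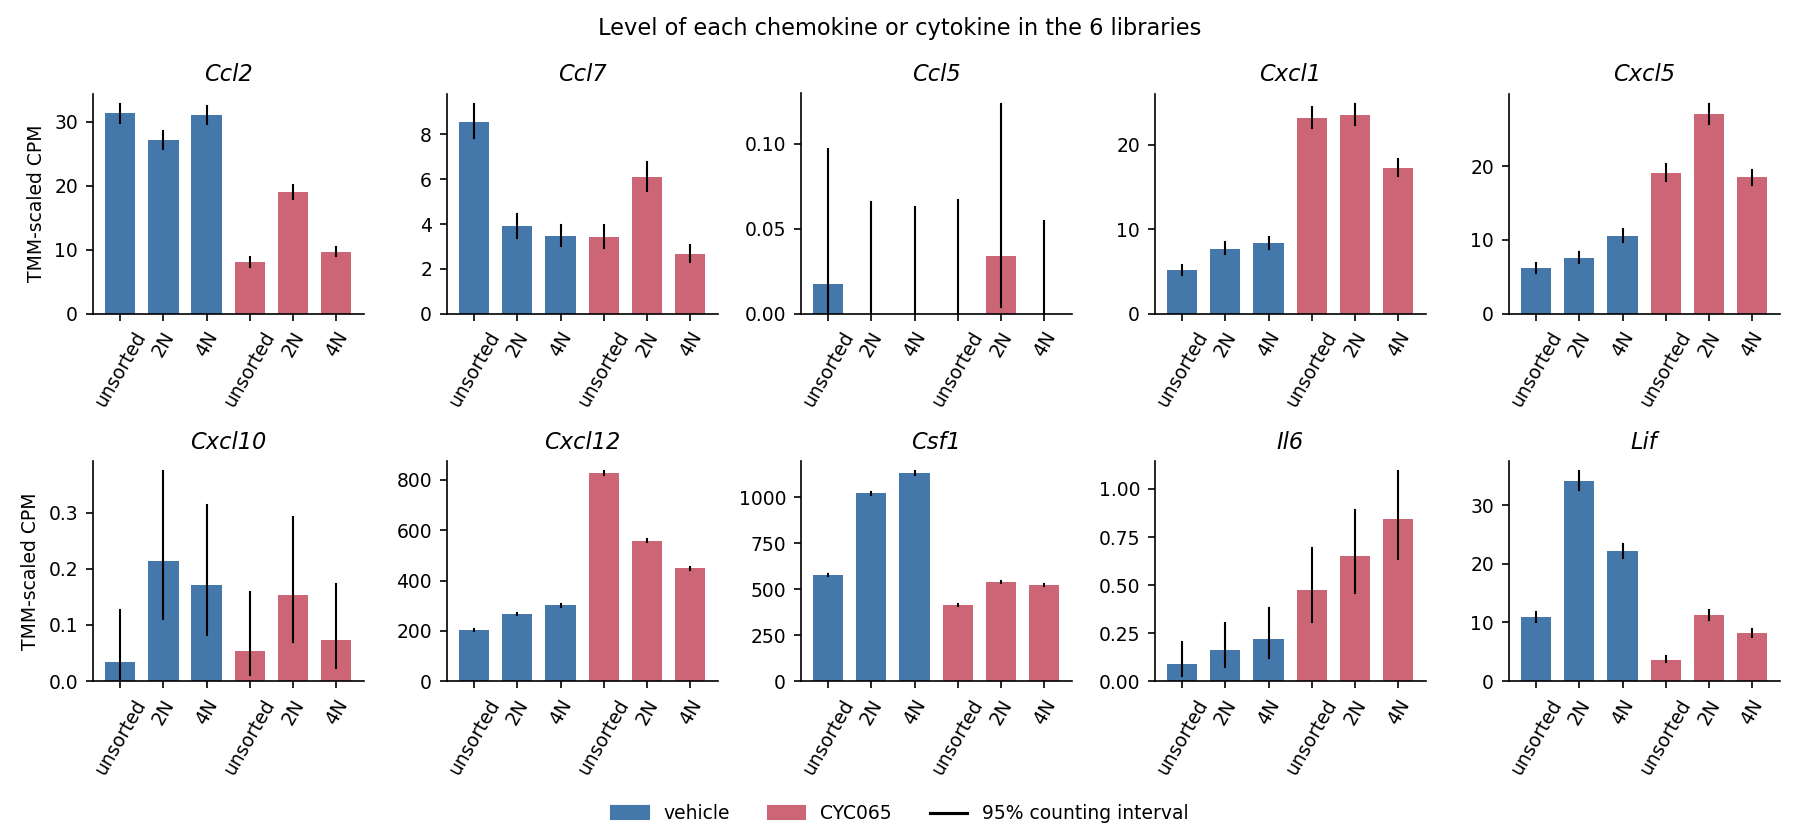
TMM-scaled CPM (linear axes from 0, a scale of its own for each gene) of the 10 genes in the 6 libraries, with bars for the level and black lines for the 95% counting interval. *Cxcl1*, *Cxcl5*, *Cxcl12* and *Il6* stand higher in all 3 CYC065 libraries (red) than in any vehicle library (blue), *Ccl2* and *Csf1* stand lower, and *Ccl5* does not exceed 2 counts in a library. The share of all genes separated in this way was not counted.

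The neutrophil attractants *Cxcl1* and *Cxcl5*, ligands of CXCR2, were both higher with CYC065. *Cxcl1* had 296 counts (5.16 CPM) in unsorted, 434 (7.72 CPM) in 2N and 489 (8.34 CPM) in 4N vehicle-treated cells, and 1279 (23.2 CPM), 1379 (23.6 CPM) and 1171 (17.3 CPM) in the corresponding CYC065-treated cells. The lowest CYC065 library was thus above the highest vehicle library. *Cxcl1* rose in all 3 comparisons, with a log2 ratio of 2.17 (1.99 to 2.36) in unsorted, 1.61 (1.45 to 1.77) in 2N and 1.05 (0.90 to 1.21) in 4N cells, a call that ended when the whole interval had to lie beyond 1. *Cxcl5* went from 354 (6.18 CPM), 426 (7.58 CPM) and 619 counts (10.6 CPM) with vehicle to 1053 (19.1 CPM), 1584 (27.1 CPM) and 1251 (18.5 CPM) with CYC065, in the order unsorted, 2N and 4N. Its libraries did not overlap between treatments either. How many of all genes separate the treatments in this way was not counted, for these members or those below. *Cxcl5* rose in unsorted (1.63, 1.46 to 1.81) and 2N cells (1.84, 1.68 to 1.99), whereas in 4N cells its log2 ratio of 0.81 (0.67 to 0.95) was not called. In 2N cells 5 of the 8 members tested were called, 4 higher and 1 lower, against 28.1% of all 14090 genes tested there. In 4N cells 5 of 8 were called, 2 higher and 3 lower, against 25.5% of 14183, and in unsorted cells 6 of 7, 3 higher and 3 lower, against 25.6% of 14082. The members were named with earlier results of these data known, so these shares are not independent evidence.

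*Cxcl12* was the member with the largest gain in counts. It had 11682 counts (204 CPM) in unsorted, 14998 (267 CPM) in 2N and 17634 (301 CPM) in 4N cells with vehicle, and 45460 (826 CPM), 32653 (558 CPM) and 30320 (448 CPM) with CYC065. *Cxcl12* rose in unsorted cells by 2.02 (1.99 to 2.05) and in 2N cells by 1.06 (1.04 to 1.09), and its log2 ratio in 4N cells was 0.57 (0.55 to 0.60), under the call limit. Fibroblasts and stromal cells are its usual source. A list of 8 fibroblast and endothelial markers summed to 6095 to 8970 CPM with vehicle and 9352 to 15492 CPM with CYC065, nearly all of it from the fibroblast genes, since the endothelial *Pecam1*, *Cdh5* and *Kdr* had at most 20, 91 and 5 counts. Of the markers tested, 4 of 6 rose and 0 fell in 2N cells, 3 rose and 1 fell of 6 in 4N cells, and 3 of 5 rose and 0 fell in unsorted cells. Over all genes tested, 14.8%, 14.1% and 11.7% rose and 13.3%, 11.4% and 13.9% fell, in the same order. *Dcn*, *Pdgfra* and *Pdgfrb* rose in all 3 comparisons. *Col1a2* rose in 2N cells (1.04) and was not called in 4N (0.72) or unsorted cells (0.68), *Col1a1* was not called in 2N (0.26), 4N (0.32) or unsorted cells (0.59), and *Cdh5* fell in 4N cells (-1.79). The part of these genes in the *Cxcl12* result was not tested. In bulk RNA, a change in the share of cells of a type and a change in RNA per cell cannot be told apart.

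The label of a lung cancer line was checked against 8 epithelial markers. *Epcam* and *Sftpc* had at most 1 count in any library, *Nkx2-1* had 0, and all 8 summed to 0.593 to 1.52 CPM. *Krt8* alone reached the minimum count, in 4N cells, where it rose with CYC065 (1.71, 0.78 to 2.86). Of the leukocyte markers, *Ptprc* and the macrophage gene *Adgre1* had at most 1 count. *Lyz2* and *Itgam* stayed under the minimum count, with log2 ratios of CYC065 over vehicle of 5.07 and 3.85 in 2N cells. Their intervals there began at 1.99 and 0.47 and had no upper end, because the vehicle library held no counts. The size of these 2N ratios therefore depends on the prior count. In 4N cells the ratios of *Lyz2* and *Itgam* were 0.95 and 0.89, with intervals that held 0. *Cd68*, a lysosomal protein used as a macrophage marker, rose in all 3 comparisons, from 194 to 1389 counts in 2N cells, from 213 to 1280 in 4N cells and from 233 to 598 in unsorted cells. The other 2 markers tested did not follow it: *Cd14* had log2 ratios of 0.37 in 2N, 0.45 in 4N and -0.60 in unsorted cells, none called, and *Csf1r* had -0.24 in 2N and -0.94 in 4N cells, not called, and fell in unsorted cells (-1.27). The 9 macrophage and leukocyte markers summed to 10.04 to 13.2 CPM with vehicle and 16.7 to 32.1 CPM with CYC065, and their part in the chemokine results was not tested.

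The monocyte attractants *Ccl2* and *Ccl7*, ligands of CCR2 that lie next to each other on chromosome 11, did not follow the CXC group. *Ccl2* (chr11:82035571-82037453) had 1795 counts (31.3 CPM) in unsorted, 1527 (27.2 CPM) in 2N and 1823 (31.1 CPM) in 4N vehicle-treated cells, and 442 (8.03 CPM), 1110 (19.0 CPM) and 658 (9.72 CPM) with CYC065. All vehicle libraries were above all CYC065 libraries. *Ccl2* fell in unsorted (-1.96, -2.12 to -1.81) and 4N cells (-1.68, -1.81 to -1.55), and its log2 ratio in 2N cells was -0.52 (-0.63 to -0.41). *Ccl7* (chr11:82045712-82047525) had 491 (8.57 CPM), 219 (3.90 CPM) and 203 counts (3.46 CPM) with vehicle and 188 (3.42 CPM), 356 (6.09 CPM) and 180 (2.66 CPM) with CYC065, in the same order. Here the treatments overlapped, because the 2N library was the higher one with CYC065 and the unsorted library the higher one with vehicle. *Ccl7* fell in unsorted cells (-1.32, -1.58 to -1.08). Its log2 ratio was 0.64 (0.40 to 0.89) in 2N and -0.38 (-0.68 to -0.08) in 4N cells, neither of them called. An uncharacterized gene on the other strand of *Ccl2*, *Gm17268*, had 0 counts in all 6 libraries.

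Their neighbors in the same cluster had few counts. *Ccl11*, *Ccl12* and *Ccl1* reached at most 2 in a library. *Ccl8* had 7, 1 and 9 counts with vehicle and 33, 41 and 18 with CYC065 in unsorted, 2N and 4N cells. It rose in 2N (4.73, 2.74 to 10.64) and unsorted cells (2.22, 1.09 to 3.72), was under the minimum in 4N cells, and was lower in 4N than in 2N cells after CYC065 (-1.38, -2.29 to -0.57). In the chromosome 5 cluster that runs from *Cxcl5* to *Cxcl2*, *Pf4* and *Cxcl3* reached at most 3 counts. *Cxcl15* had 0, 0 and 1 counts with vehicle and 32, 15 and 5 with CYC065 in unsorted, 2N and 4N cells, and was called higher in unsorted cells, the comparison in which it reached the minimum. *Cxcl2*, the closest neighbor of *Cxcl1* and likewise a CXCR2 ligand, had 9 to 27 counts. *Ppbp*, which lies beside *Cxcl5* and encodes a platelet chemokine, had up to 337 counts and fell with CYC065 in 2N (-1.20) and 4N cells (-3.04). In 2N cells, *Cxcl1* and *Cxcl5* thus rose while *Ppbp*, in the same cluster, fell.

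**Figure D2:**
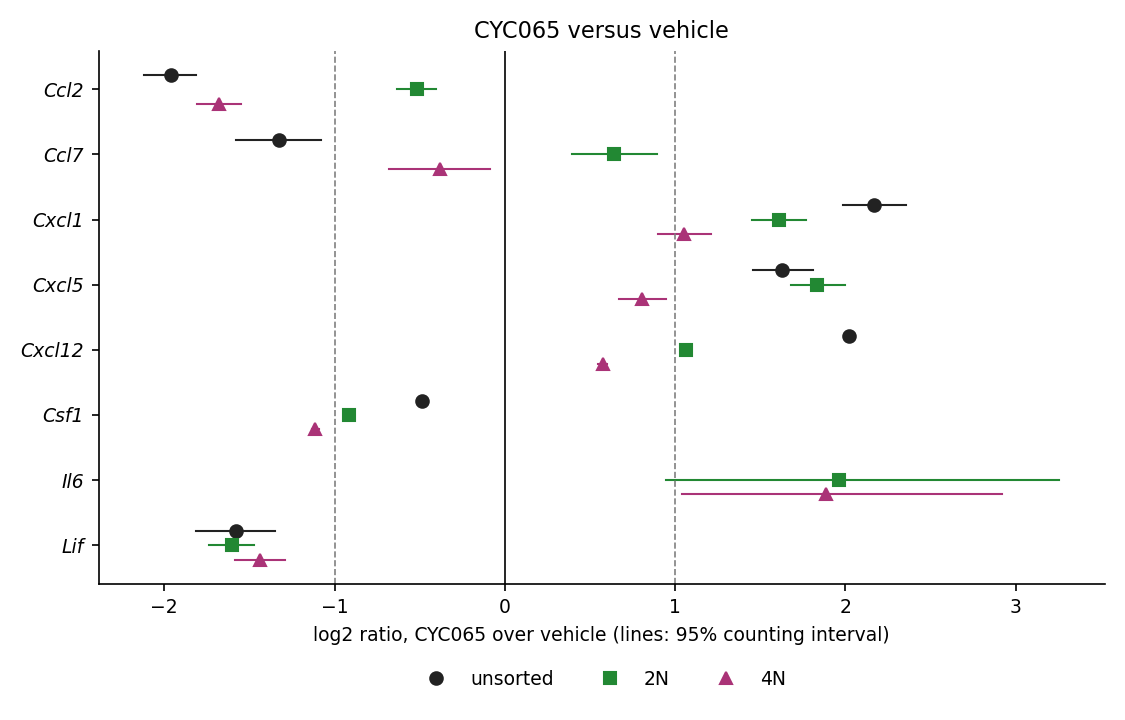
Log2 ratio of CYC065 over vehicle for each tested gene in unsorted (black circles), 2N (green squares) and 4N cells (purple triangles), with 95% counting intervals and dashed lines at the call limits of -1 and 1. *Cxcl1* and *Lif* lie beyond a limit in all 3 populations in opposite directions, and *Ccl2* lies at -0.52 in 2N cells against -1.68 in 4N cells.

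The 2 cytokines that signal through gp130 moved in opposite directions. *Il6*, the inflammatory cytokine that names the family, had few reads, with 5 counts (0.0872 CPM) in unsorted, 9 (0.160 CPM) in 2N and 13 (0.222 CPM) in 4N cells with vehicle. With CYC065 it had 26 (0.472 CPM), 38 (0.650 CPM) and 57 counts (0.842 CPM). *Il6* rose in 2N (1.96, 0.95 to 3.25) and 4N cells (1.88, 1.04 to 2.92), and was under the minimum count in unsorted cells. The call in 2N cells ended when the whole interval had to lie beyond 1. *Lif*, which maintains stem cells and acts on many epithelia, had 629 (10.97 CPM), 1919 (34.2 CPM) and 1299 counts (22.2 CPM) with vehicle and 202 (3.67 CPM), 657 (11.2 CPM) and 554 (8.19 CPM) with CYC065. It fell in unsorted (-1.58, -1.82 to -1.35), 2N (-1.60, -1.73 to -1.48) and 4N cells (-1.44, -1.58 to -1.29). *Lif* also spanned the widest range of the members with at least 100 counts, 9.29-fold between vehicle-treated 2N and CYC065-treated unsorted cells.

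Of the member cytokines *Csf1*, *Il6* and *Lif*, *Csf1* had the highest level in all 6 libraries. It had 33050 counts (577 CPM) in unsorted, 57428 (1022 CPM) in 2N and 66335 (1132 CPM) in 4N cells with vehicle, and 22662 (412 CPM), 31641 (541 CPM) and 35426 (523 CPM) with CYC065. Each CYC065 library was below each vehicle library. *Csf1* fell in 4N cells (-1.11, -1.13 to -1.09), and with scaling by library size alone that ratio was -0.97, inside the call limit. The call also ended in edgeR with the coefficient of variation set to 0.2. The ratios in 2N (-0.92, -0.94 to -0.90) and unsorted cells (-0.49, -0.51 to -0.46) were not called.

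*Ccl5* and *Cxcl10*, which attract T cells and are induced by interferon, could not be compared. *Ccl5* had 1 count in unsorted vehicle-treated cells, 2 in CYC065-treated 2N cells and 0 in the other 4 libraries. In those 4 the upper end of the interval was 0.0545 to 0.0670 CPM. *Cxcl10* had 2, 12 and 10 counts with vehicle and 3, 9 and 5 with CYC065 in unsorted, 2N and 4N cells. Neither reached the minimum of 30 counts in a library. *Cxcl10* shares 3.59% of its 50-base words with *Art3*, which overlaps it on the other strand and had 0 counts in every library.

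Whether 4N cells differed from 2N cells was asked within each treatment. With vehicle, 0 of the 7 members tested were called, against 2.68% of 13365 genes, and the log2 ratios of 4N over 2N ran from -0.62 for *Lif* to 0.48 for *Cxcl5*. After CYC065, 1 of 8 was called, against 3.57% of 14180 genes. That member was *Ccl7*, with 180 counts in 4N and 356 in 2N cells and a log2 ratio of -1.19 (-1.46 to -0.93). This call ended when the whole interval had to lie beyond 1 and when edgeR was given a coefficient of variation of 0.2. *Ccl2* stood just inside the limit at -0.96 (-1.11 to -0.82). The median over the 8 members was -0.45 after CYC065, where that over all genes was 0.02. Of the 8 ratios 7 were below 0, beside 6574 of 14180 over all genes. *Il6* was the exception with 0.37 (-0.24 to 1.01). This lean was not particular to the members. Below 0 were also 16 of 18 other cytokines and growth factors and 14 of 17 secreted proteases and inhibitors, but 3 of 7 other chemokines. The ratio of *Csf1* was close to 0 (-0.05, -0.07 to -0.03).

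**Figure D3:**
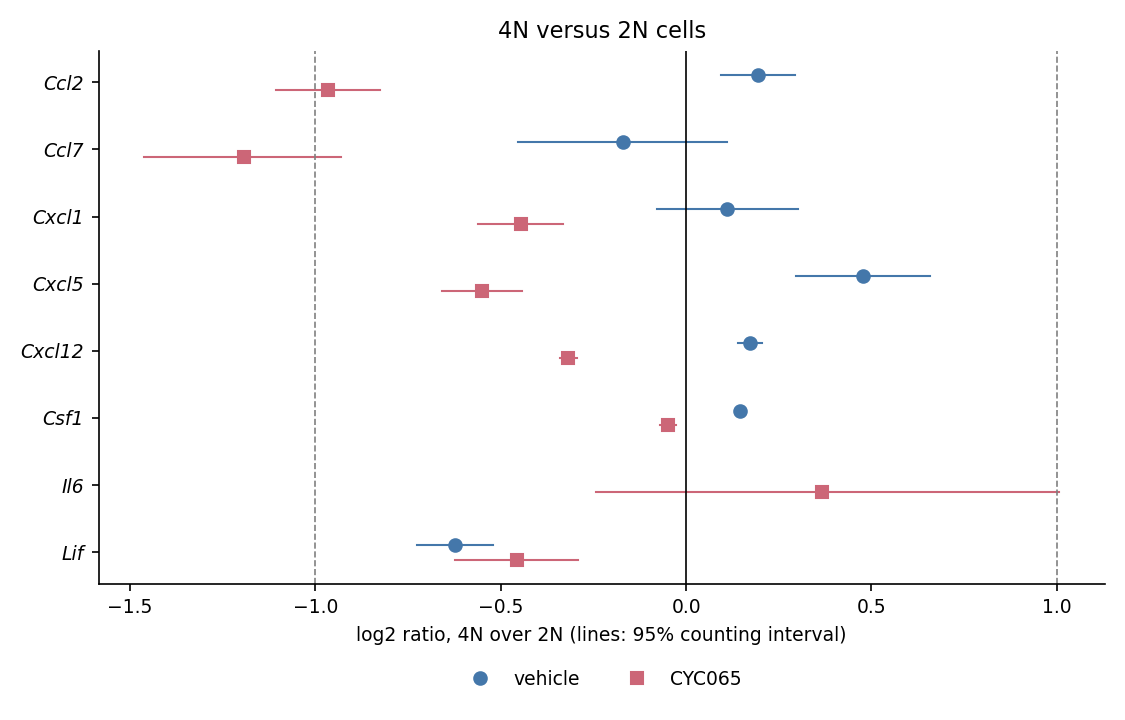
Log2 ratio of 4N over 2N cells for each tested gene with vehicle (blue circles) and CYC065 (red squares), with 95% counting intervals and dashed lines at -1 and 1. *Ccl2* and *Cxcl5* lie above 0 with vehicle and below 0 with CYC065, and *Ccl7* after CYC065 is beyond the limit.

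The effect of CYC065 was then compared between 4N and 2N cells directly. The difference of the log2 effects, 4N minus 2N, was called for 3 of 8 members, all lower in 4N cells, against 5.28% of 14482 genes. It was -1.16 (-1.33 to -0.99) for *Ccl2*, -1.02 (-1.40 to -0.64) for *Ccl7* and -1.03 (-1.24 to -0.82) for *Cxcl5*. When edgeR was given a coefficient of variation of 0.2 for the variation between cultures, which these libraries cannot supply, 0 of these 3 were called. These calls also ended when the whole interval had to lie beyond 1. The direction was not particular to these genes. In the lists nearest in kind, 4 of 17 secreted proteases and inhibitors were lower in 4N cells and 0 higher, 3 of 18 other cytokines and growth factors were lower and 0 higher, and 2 of 8 other chemokines were lower and 1 higher. *Cxcl1* (-0.56, -0.77 to -0.34) and *Cxcl12* (-0.49, -0.53 to -0.45) had differences of the same sign inside the limit. For *Lif* (0.17, -0.02 to 0.36) and *Il6* (-0.08, -1.41 to 1.26) the interval held 0.

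Unsorted cells of a treatment would lie between the sorted populations if these made up the culture and handling were alike. With vehicle, 5 members were below both sorted libraries (*Cxcl1*, *Cxcl5*, *Cxcl12*, *Csf1* and *Lif*), *Ccl7* was above both, and *Ccl2* was not outside them. With CYC065, *Cxcl12* was above both, *Ccl2*, *Csf1* and *Lif* were below both, and 4 members were not outside. *Lif* showed the largest gap, being 3.11-fold higher in 2N than in unsorted cells with vehicle and 3.06-fold higher with CYC065. The log2 effect of CYC065 on *Ccl7* in unsorted cells minus that in 2N cells was -1.97 (-2.31 to -1.62), and that on *Cxcl12* minus its effect in 4N cells was 1.44 (1.40 to 1.48). For *Lif* the effect differed by 0.03 (-0.24 to 0.29) from that in 2N cells. Sorting, staining and library cannot be told apart here.

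**Figure D4:**
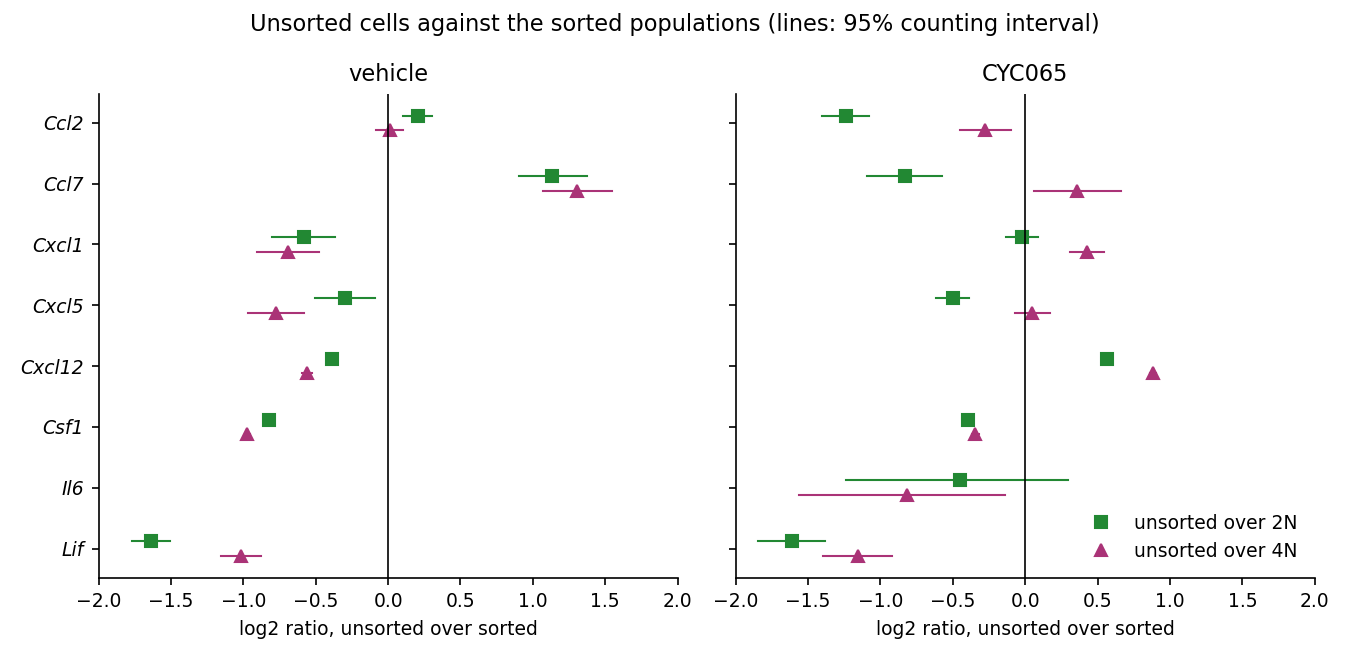
Log2 ratio of unsorted cells over 2N (green squares) and over 4N cells (purple triangles) of the same treatment, with 95% counting intervals, for members above the minimum count. *Lif* and *Csf1* lie left of 0 in both treatments, and *Cxcl12* lies left of 0 with vehicle and right of 0 with CYC065.

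Receptors for these ligands were mostly missing from the cells. Among the receptor genes, *Ccr2*, *Cxcr3*, *Cxcr4* and the decoy receptor *Ackr1* had 0 counts in all 6 libraries, *Cxcr1*, *Cxcr2*, *Ccr1* and *Ccr3* had at most 7, and *Ackr2* had up to 24. In sorted cells *Ackr2* had no counts with vehicle. Its intervals for CYC065 over vehicle began at 1.67 in 2N and 2.38 in 4N cells, without an upper end, and it was under the minimum count in both. The 5 tested were *Ackr3*, *Csf1r*, *Il6ra*, *Il6st* and *Lifr*. *Ackr3*, the scavenger of CXCL12, had 3614, 3637 and 3581 counts with vehicle and 1179, 1972 and 2140 with CYC065 in unsorted, 2N and 4N cells. It fell in unsorted cells (-1.56), and its ratios in 2N (-0.94) and 4N cells (-0.95) were not called. *Lifr*, the receptor of LIF, rose in unsorted (1.34) and 2N cells (1.37), and had a ratio of 0.79 in 4N cells, which was not called, whereas *Lif* fell in all 3. *Il6st* had 12657 to 21655 counts and *Il6ra* 1751 to 4753, and neither was called. *Csf1r*, the receptor of CSF1, had 38 to 115 counts and fell in unsorted cells (-1.27).

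Several STAT genes and feedback inhibitors of cytokine signalling rose, and whether gp130 had a part in this was not tested. Of 16 JAK-STAT and interferon factors, all tested, 8 rose and 0 fell in 2N cells, 7 and 0 in 4N cells, and 4 and 0 in unsorted cells. The rises are 50%, 43.8% and 25% of the list. Over all genes tested, 14.8%, 14.1% and 11.7% rose and 13.3%, 11.4% and 13.9% fell. Called in either direction were 28.1%, 25.5% and 25.6% of all genes. By that measure the share of the list in unsorted cells was near that of all genes, although its calls were all rises. Their median log2 ratios were 0.90, 0.64 and 0.48, beside -0.07, -0.03 and -0.07 over all genes tested. *Socs2*, a feedback inhibitor of cytokine receptors, rose from 393 to 2261 counts in 2N cells (2.47) and from 428 to 2300 in 4N cells (2.22). In unsorted cells it rose from 646 to 2723 (2.13). *Stat3* rose by 1.34, 1.31 and 1.20 in 2N, 4N and unsorted cells, in unsorted cells from 5748 to 12687 counts. *Irf7*, a factor of the interferon response, rose by 2.69 in 2N and 3.24 in 4N cells, where *Ccl5* and *Cxcl10* were near 0.

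NF-κB pathway genes were called at shares on either side of those of all genes. Among 21 tested, 2 rose and 3 fell in 2N cells (23.8%), 3 and 4 in 4N cells (33.3%), and 3 and 1 in unsorted cells (19.0%), beside the same 28.1%, 25.5% and 25.6%, with medians of 0.13, 0.07 and -0.05. *Cebpd*, a C/EBP factor that activates cytokine genes, rose by 3.29, 3.37 and 3.18 in 2N, 4N and unsorted cells. *Nfkbiz*, an atypical IκB protein needed for secondary NF-κB targets, rose by 1.75, 1.51 and 1.44 in 2N, 4N and unsorted cells. *Traf1*, an NF-κB target and adaptor, fell by 2.50, 2.99 and 1.28 in 2N, 4N and unsorted cells. *Nfkb2* fell by 1.55 in both 2N and 4N cells.

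Factors that bind AU-rich and related elements in cytokine mRNAs were followed as a list of 9, in which 8 promote decay and 1, *Elavl1*, stabilizes its targets. Of the 9, all tested, 2 rose and 1 fell in 2N cells (33.3%), 2 and 0 in 4N cells (22.2%), and 2 and 1 in unsorted cells (33.3%), counts too small to set apart from the shares of all genes, with medians of -0.18, -0.35 and -0.15. *Elavl1* had ratios of -0.90, -0.73 and -0.48 in 2N, 4N and unsorted cells, none called. *Zfp36*, which encodes the decay factor tristetraprolin, rose by 2.44, 2.31 and 1.64 in 2N, 4N and unsorted cells, and *Zfp36l1* rose by 1.68, 1.28 and 1.70. *Cxcl1*, whose UTR was the densest in ATTTA among the members, rose in the same 3 comparisons. *Hnrnpd*, which encodes the AU-binding protein AUF1, fell in 2N (-1.39) and unsorted cells (-1.54).

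Other secreted factors did not share 1 direction. Of 30 other chemokines, 6 to 8 passed the minimum count in these 3 comparisons, and 1 rose and 2 fell in 2N cells, 0 and 1 in 4N cells, and 3 and 0 in unsorted cells, with medians of -0.29, -0.44 and 0.75. With so few tested, these are 37.5%, 16.7% and 42.9% of them, beside 28.1%, 25.5% and 25.6% of all genes. *Cx3cl1*, a membrane-bound chemokine, rose from 2182 to 4509 counts in unsorted cells (1.11). Among 24 other cytokines and growth factors, 4 rose and 5 fell of 17 in 2N cells, 3 and 4 of 18 in 4N cells, and 3 and 2 of 16 in unsorted cells (52.9%, 38.9% and 31.2% called), with medians of 0.02, -0.21 and 0.39. *Hgf* rose by 2.20, 2.45 and 1.76 and *Tgfb2* by 1.93, 2.01 and 3.37 in 2N, 4N and unsorted cells. *Hbegf* fell by 1.52 in 2N and 1.99 in 4N cells. *Clcf1*, a further ligand of the gp130 family, fell by 1.35 in 2N and 1.11 in unsorted cells, and its ratio in 4N cells (-0.90) was not called. Of 19 secreted proteases and inhibitors, 7 rose and 3 fell of 17 in 2N cells, 6 and 6 of 17 in 4N cells, and 8 and 3 of 15 in unsorted cells (58.8%, 70.6% and 73.3% called), with medians of 0.58, 0.30 and 1.18. *Timp1*, a protease inhibitor, fell in all 3 comparisons, by 2.84, 3.19 and 2.15 in 2N, 4N and unsorted cells. *Mmp2*, a gelatinase, rose in all 3, by 1.73, 1.82 and 2.60 in the same order.

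**Figure D5:**
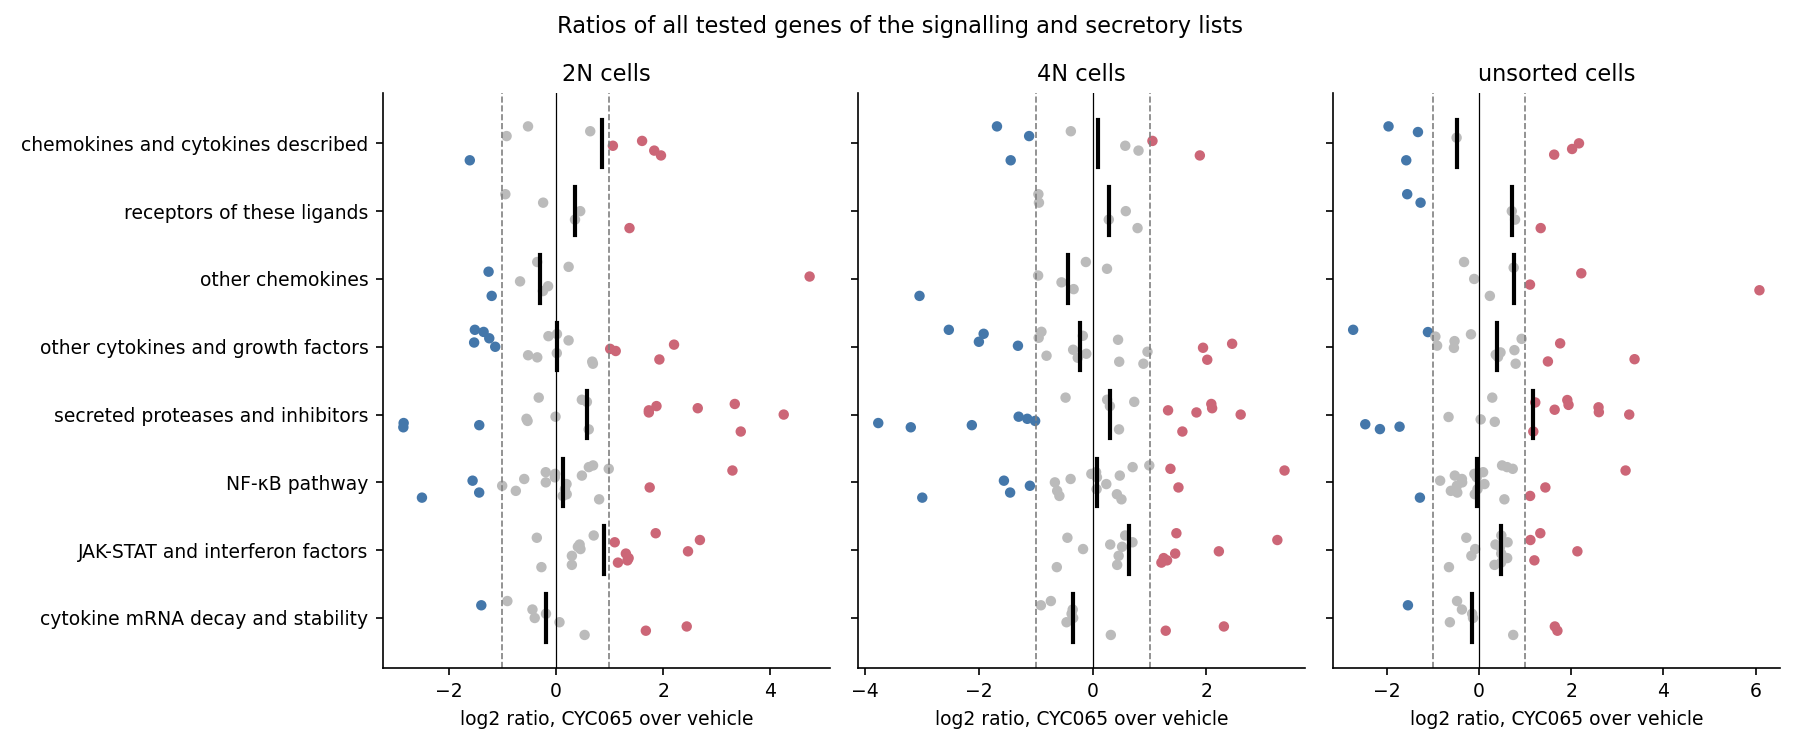
Log2 ratios of CYC065 over vehicle for all tested genes of 8 lists in 2N, 4N and unsorted cells, 1 point per gene, red when called higher, blue when called lower and gray otherwise, with a black bar at the median of each list and dashed lines at -1 and 1. Points of the JAK-STAT list lie mostly right of 0, and those of the chemokines and cytokines described fall on both sides.

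Likeness of pattern was measured over the 6 libraries as the root mean square difference of log2 levels centred on their mean. *Cxcl1* and *Cxcl5* were near each other, at 0.205, with 3 of all genes of at least 100 counts closer to *Cxcl5* and 14 closer to *Cxcl1*. *Cxcl12* lay 0.270 from *Cxcl1*. *Ccl2* and *Ccl7*, although adjacent on the chromosome, lay 0.670 apart. The nearest genes were *Klhdc8b* (0.0840) and *Adamts1* (0.0887) for *Cxcl1*, *Cdh17* (0.168) and *Col4a6* (0.174) for *Cxcl5*, and *Tcn2* (0.0739) and *Plac8* (0.0943) for *Cxcl12*. *Foxs1* (0.171) and *Anxa8* (0.187) were nearest to *Ccl2*, *Gm45555* (0.229) and *Skida1* (0.229) to *Ccl7*, *Gm8797* (0.0356) and *Ercc1* (0.0587) to *Csf1*, and *Has1* (0.167) and *Gm7332* (0.201) to *Lif*. With 6 libraries these distances are descriptions that share scaling and depth.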

How the data were processed

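Reads were demultiplexed with bcl2fastq, trimmed with Cutadapt 1.18, aligned to mm10 with STAR 2.7.0f and quantified with RSEM for GENCODE M21 by the authors. Versions of bcl2fastq and RSEM differ between the submitters' processing notes and the methods and are not given here. The file deposited by the authors holds expected counts from RSEM, without normalization or filter. Of 55450 genes, 9.66% have a fractional value in a column, and the 10 members have whole counts throughout. All 18 columns were used.

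The 3 columns of a condition were summed. Over whole-count genes their chi-square per degree of freedom was at most 1.02. Over genes with fractional counts it was 4.35 to 7.60. The main measure was the log2 ratio of summed counts scaled by TMM over all 6 libraries, with a prior count of 0.5 and a minimum of 30 summed counts. Intervals came from the exact conditional binomial, or from a normal approximation for differences of effects. Expected counts were rounded for edgeR 4.0.16 and DESeq2 1.42.0 in R 4.3.3, used as alternatives only. Alternatives were other scalings, filters, prior counts and call rules, a replicate block, and leaving out each column.

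Members and lists were chosen with earlier results of these data known. The text names the 10 members, the receptors except 1 that is not reported here, up to 3 called genes of largest change with at least 100 counts per list and comparison, and the 2 genes most like each member. Cell type markers were fixed as a list, and the neighbors of members in the chemokine clusters and the genes that overlap a member were named after their values were seen. Figures and tables used Python 3.11.15, pandas 2.3.3, NumPy 2.4.6, SciPy 1.17.1 and matplotlib 3.10.9. The methods were tested on simulated data with 200 changed genes. The simulated counts held sampling noise alone, so this test cannot speak to variation between cultures.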

Additional observations from a re-analysis of the deposited data

Results flagged for a closer look

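The difference between the CYC065 effects in 4N and 2N cells was past the call limit for *Ccl2* (-1.159 on the log2 scale), *Cxcl5* (-1.028) and *Ccl7* (-1.022), which is why these 3 are listed. In each the interval for counting error left out 0, and no variation between cultures enters it. Sorted libraries of *Ccl7* held only 180 to 356 counts.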

How the results depend on the processing

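Each condition is 1 library, so no alternative adds a spread between cultures. Of the member values recomputed under the alternatives, 620 kept their direction and side of the limit, 15 lost the call, 1 gained it and 1 turned. The counts of genes called in CYC065 versus vehicle stayed within 1.5 times in 2N, 4N and unsorted cells under every alternative run. In 4N versus 2N cells after CYC065 the count of 506 became 1231 with no filter on low counts, 216 at a minimum of 100 counts, 162 with the whole interval beyond 1 and 42 in edgeR when 0.2 was assumed as the biological coefficient of variation. With vehicle, the count of 358 became 847, 120, 70 and 22 in the same order. For the difference of effects, 764 became 1147, 293, 106 and 16 in that order, and 343 in DESeq2 on the columns. The filters and the stricter rule test or admit other genes by construction, and the cause of the other shifts was not tested.

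Scaling by library size alone moved the median of all genes from -0.07 to 0.07 in 2N cells and from -0.03 to 0.11 in 4N cells, and the share of calls that were higher from 52.8 to 62.9% and from 55.3 to 66.4%. The call of *Csf1* in 4N cells ended at -0.97 there. With the whole interval beyond 1, the calls of *Il6* in 2N cells, *Cxcl1* in 4N cells, *Ccl7* in 4N versus 2N cells after CYC065 and all 3 differences of effects ended. The coefficient of 0.2 ended those of *Csf1* in 4N cells, *Ccl7* in 4N versus 2N cells after CYC065 and the same 3 differences. Without replicate 2, the *Il6* difference turned from -0.08 to 0.61 (-0.62 to 0.61 over the replicates left out) and *Ccl2* in 4N versus 2N cells after CYC065 was called at -1.0. Without replicate 1, the *Ccl7* difference was -0.87 and that of *Cxcl5* -0.93, and without replicate 3 that of *Cxcl5* was -0.98. The replicate block left 3872 calls in 2N and 3610 in 4N cells and changed no member's call. Same-numbered columns of different conditions did not deviate together (median correlation -0.008, range -0.223 to 0.157, beside -0.009 for other pairs), so the numbers were not taken as a pairing.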
